A study of Mus musculus with 12 samples.

Results

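*Apoe*, *Lpl*, *Gpihbp1*, *Vldlr*, *Lrp8*, *Scarb1*, *Cd36*, *Fabp4* and *Fabp5* are 9 genes of lipoprotein and fatty acid uptake, out of 49315 genes counted. *Apoe* is a product of brain endothelium, and most of the others are known from capillaries of other organs. They were chosen by name for what they do and not by a threshold on their values, but with earlier results of these data known. Shares and medians of the 9 set beside those of all genes are therefore descriptive. All 9 passed the filter on low counts, *Fabp4* only through the *Gpr124-/-* libraries. RNA-seq was made from CD31+ endothelial cells of E15.5 mouse forebrains in 3 genotypes, with 4 embryos each and 1 library per embryo. WT embryos were named JE1, JE6, KE8 and LE6. *Gpr124ΔC/ΔC* embryos (JE3, JE4, LE2 and LE5) are homozygous for a knock-in made by genome editing. It places a V5 tag and a stop codon behind the last transmembrane segment of GPR124, so that the protein lacks its intracellular domain. The paper reports much less of this protein than of WT GPR124, at the cell surface and in total, with similar mRNA. *Gpr124-/-* embryos (KE4, ME1, ME4 and ME5) are homozygous for a lacZ null allele in every cell and not only in endothelium. Such embryos bleed into the forebrain, and the paper reports a smaller forebrain hemorrhage in some younger *Gpr124ΔC/ΔC* embryos. The sort took CD31+ cells without CD140b, CD45 or 7AAD staining.

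Capillaries of heart, muscle and fat take up lipid from blood. Lipoprotein lipase (LPL), made by the surrounding cells and held on the capillary wall by GPIHBP1, splits triglyceride in circulating lipoproteins, and the fatty acids released enter through CD36 and are carried inside the cell by the binding proteins FABP4 and FABP5. Capillaries of the brain do not use this route to any great extent. They carry lysophospholipids across with MFSD2A, and their endothelium is one of the cell types that can make apolipoprotein E, a ligand of lipoprotein receptors such as VLDLR and LRP8 (also called ApoER2). GPR124 is an adhesion receptor that brain endothelium needs to answer neural WNT ligands.

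The depth was 13877572 to 22551163 reads on genes. *Adgra2*, the gene of GPR124, was at 28.3 to 51.1 TPM (reads per length of the gene, put on one total for all libraries) in WT, at 34.1 to 63.4 in *Gpr124ΔC/ΔC* and at 4.03 to 6.29 in *Gpr124-/-*. The 8 endothelial markers summed to 5142 to 6393 TPM in WT, 4488 to 6830 in *Gpr124ΔC/ΔC* and 5106 to 6268 in *Gpr124-/-*. Of the 8 brain endothelial markers, 7 fell in *Gpr124-/-* and 2 in *Gpr124ΔC/ΔC*. Platelet markers (7 of 8) and erythroid markers (5 of 8) were higher in *Gpr124-/-*. The first letter of the embryo label, whose meaning is not given, runs with genotype: J holds 2 WT and 2 *Gpr124ΔC/ΔC* embryos, L holds 1 and 2, K holds 1 WT and 1 *Gpr124-/-*, and M holds 3 *Gpr124-/-*. A fit with this letter as a term therefore rests on KE4 against KE8 for the null, and no *Gpr124ΔC/ΔC* embryo shares a letter with a *Gpr124-/-* embryo.

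In *Gpr124-/-* endothelium, *Apoe* and its receptor *Lrp8* fell, *Gpihbp1*, *Cd36* and *Fabp5* rose, and *Fabp4*, with at most 3 reads in any other embryo, had 33 to 152. Of the 9 genes, 5 were higher and 3 lower than in WT with an adjusted p under 0.05 and a log2 fold change beyond 1 in size (edgeR quasi-likelihood test, all 12 libraries in one fit). Over all 16637 genes tested, 5.67% were higher and 4.21% lower by the same rule. *Fabp4* is in these counts although it could be tested only because it was high in the null, and without it 4 of 8 were higher. The median absolute log2 fold change was 2.85 over the 9 genes, 2.32 without *Fabp4* and 0.27 over all genes. In *Gpr124ΔC/ΔC* against WT, 0 of the 9 were higher and 2 were lower (*Apoe* and *Lrp8*), where 0.890% and 1.03% of all genes were. At an unadjusted p under 0.05 edgeR and DESeq2 each had 1 of the 9 higher and 3 lower, and DESeq2 called the same numbers as edgeR. The 1 was *Gpihbp1*, which passed the adjusted p alone, so that 3 of the 9 passed without a fold-change threshold beside 4.09% of all genes, and which limma on TPM put past both thresholds. The median absolute log2 fold change was 0.45 over the 9 genes, 0.43 without *Fabp4* and 0.17 over all genes. In *Gpr124-/-* against *Gpr124ΔC/ΔC*, 4 were higher and 2 lower, or 3 and 2 of 8 without *Fabp4*, beside 2.67% and 1.94% of all genes. The comparisons share libraries, each genotype entering 2 of them.

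**Figure D1:**
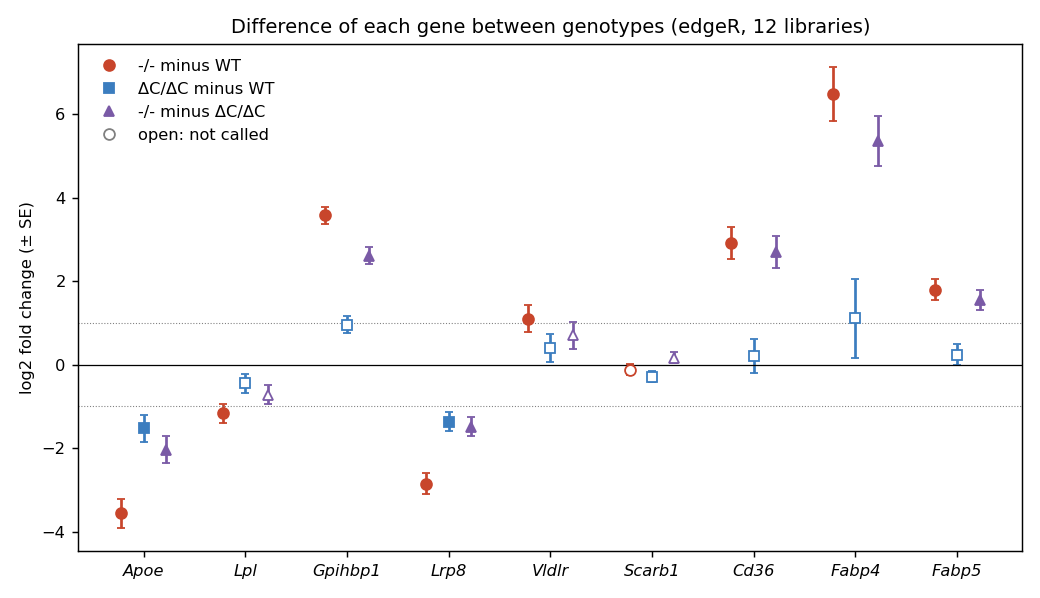
Log2 fold change (± SE, edgeR) of the 9 genes in the 3 comparisons, with filled symbols for genes called and open symbols for genes not called. *Apoe* and *Lrp8* lie below -1 in all 3 comparisons, *Scarb1* lies within 0.29 of 0, and the highest point is *Fabp4* at 6.47 in *Gpr124-/-* minus WT.

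The order of the levels changed between genotypes. In WT, *Apoe* led with a mean of 1106 TPM, followed by *Lrp8* (204) and *Scarb1* (152), whose ranges over embryos overlapped, and then by *Gpihbp1* (22.8), *Fabp5* (10.2), *Lpl* (2.14), *Cd36* (0.882), *Vldlr* (0.409) and *Fabp4* (0.0410), with no overlap between neighbors below *Scarb1*. In *Gpr124ΔC/ΔC*, *Apoe* still led at 409 TPM, *Scarb1* and *Lrp8* overlapped at 133 and 83.2, *Gpihbp1* stood at 46.6 and *Fabp4* was last at 0.0947. In *Gpr124-/-*, *Gpihbp1* led at 276 TPM, clear of *Scarb1* (143) but not of *Apoe* (97.9), whose range reached above both in KE4. *Fabp5* (35.9) overlapped with *Lrp8* (29.5) there, and *Cd36* (6.89), *Fabp4* (4.05), *Lpl* (0.971) and *Vldlr* (0.897) each overlapped with the next.

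**Figure D2:**
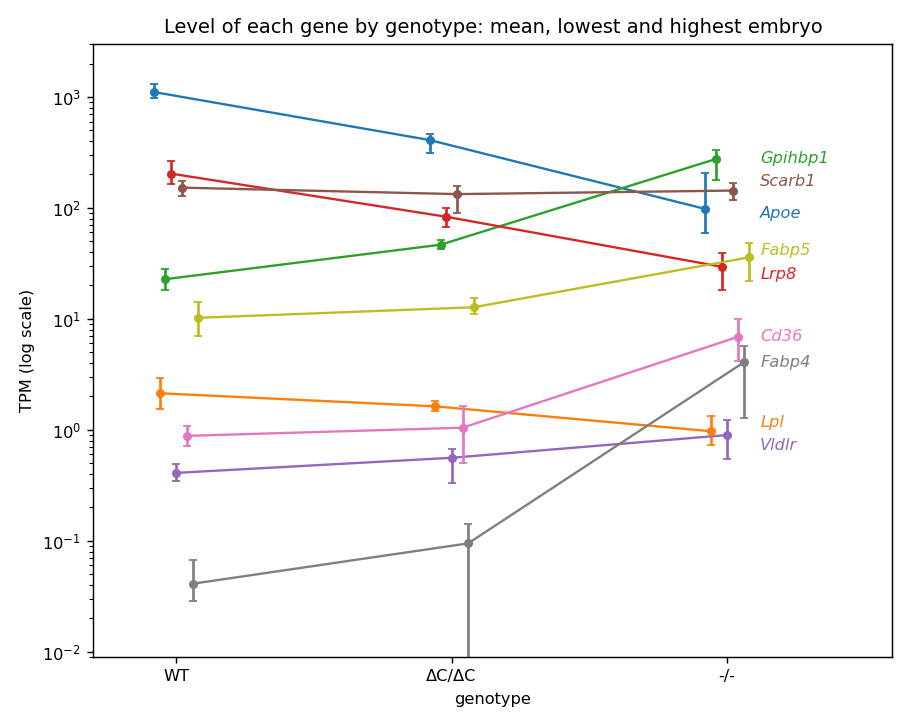
Mean TPM of each gene on a log axis in the 3 genotypes (4 embryos each), with bars from the lowest to the highest embryo. The bar of *Fabp4* in ΔC/ΔC runs off the axis because 1 embryo had 0 reads. The lines of *Apoe* and *Gpihbp1* cross between ΔC/ΔC and -/-.

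*Apoe*, the lipoprotein ligand, was the most abundant of the 9 transcripts in WT and fell 11.3-fold in mean TPM in *Gpr124-/-* and 2.71-fold in *Gpr124ΔC/ΔC*. WT embryos JE1, JE6, KE8 and LE6 held 1039, 975, 1315 and 1097 TPM. *Gpr124ΔC/ΔC* embryos JE3, JE4, LE2 and LE5 held 309, 432, 427 and 467 TPM, and *Gpr124-/-* embryos KE4, ME1, ME4 and ME5 held 205, 64.4, 59.3 and 62.7 TPM. No genotype overlapped with another, and KE4 stood above the other 3 null embryos, which were close to each other. The log2 fold change from WT was -3.56 ± 0.35 (SE, adjusted p = 1.29e-05) in *Gpr124-/-* and -1.52 ± 0.32 (adjusted p = 0.0168) in *Gpr124ΔC/ΔC*. Set against *Gpr124ΔC/ΔC*, the null differed by -2.03 ± 0.33 on the log2 scale (adjusted p = 0.00259). Within letters, *Gpr124ΔC/ΔC* minus WT was -1.51 in J and -1.40 in L on the log2 CPM scale, and the K pair, KE4 minus KE8, differed by -2.72. The *Gpr124ΔC/ΔC* call was lost without JE4 (adjusted p = 0.0509), without LE2 (adjusted p = 0.0524), with limma at a pseudocount of 0.1 TPM (adjusted p = 0.0632) and by limma without a filter (adjusted p = 0.0857), at log2 fold changes of -1.54, -1.52, -1.44 and -1.44. The study shows *Apoe* among the WNT signaling genes that it selected on these same libraries, so its fall here is not independent of that choice. In bulk RNA, fewer cells of a type and less RNA per cell cannot be told apart.

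Macrophages also make *Apoe*, and radial glia can. Macrophages carry CD45, and the sort took cells without CD45 staining, a gate that would remove them. The 12 macrophage markers summed to 18.2 to 27.5 TPM in WT, 28.3 to 44.1 in *Gpr124ΔC/ΔC* and 56.1 to 109 in *Gpr124-/-*, and *P2ry12* and *Fcer1g*, which platelets also carry and which were both called higher in the null, made up most of that sum. *Cx3cr1*, *Ptprc*, *Aif1* and *Trem2* were under 1 TPM in every library, and *Mrc1* was lower in the null than in *Gpr124ΔC/ΔC* (-1.75, adjusted p = 0.0446). Without *P2ry12* and *Fcer1g*, the other 10 markers summed to 2.65 to 7.33 TPM in WT, 3.56 to 10.1 in *Gpr124ΔC/ΔC*, 0.325, 1.32 and 2.21 in ME1, ME4 and ME5, and 21.96 in KE4. KE4, the null embryo with the highest *Apoe*, thus also had the highest sum of these 10 markers among all 12 embryos. Without KE4 the log2 fold change of *Apoe* in the null was -4.17. The 8 radial glia markers summed to 115 to 142 TPM in WT, 114 to 124 in *Gpr124ΔC/ΔC* and 144 to 170 in *Gpr124-/-*, most of it *Nes*. Other than *Slc1a3*, the 7 remaining markers of the 8 passed the test in neither mutant. Their log2 fold changes ran from 0.07 (*Sox2*) to 0.68 (*Pax6*) in the null and from -0.97 (*Hes5*) to 0.19 (*Pax6*) in *Gpr124ΔC/ΔC*. *Slc1a3* was called and fell in both mutants, from 9.16 ± 2.44 TPM (SD, n = 4) in WT to 2.50 ± 0.427 in *Gpr124ΔC/ΔC* (-1.95, adjusted p = 0.000536) and 2.123 ± 0.895 in the null (-2.15, adjusted p = 4.49e-05). The part of these cells in the *Apoe* values was not tested.

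*Lrp8* encodes a receptor of APOE and reelin and had the highest mean of the receptors among the 9 in WT, although its range overlapped with that of *Scarb1*, which was the higher of the pair in LE6. It fell 6.91-fold in *Gpr124-/-* and 2.45-fold in *Gpr124ΔC/ΔC*. The 4 WT embryos, in the order given above, held 265, 217, 170 and 164 TPM, the *Gpr124ΔC/ΔC* embryos held 90.0, 74.9, 67.5 and 100 TPM, and the *Gpr124-/-* embryos held 30.9, 18.3, 38.8 and 29.9 TPM. The 3 genotypes did not overlap, and the 2 WT embryos of letter J were the highest of all 12. The log2 fold change was -2.85 ± 0.24 (adjusted p = 3.99e-06) in the null and -1.37 ± 0.23 (adjusted p = 0.00413) in *Gpr124ΔC/ΔC*. Between the mutants it was -1.48 ± 0.23 (adjusted p = 0.00214), a call lost with the letter as a term (-1.13, adjusted p = 0.381). Within letters, *Gpr124ΔC/ΔC* minus WT was -1.59 in J and -1.10 in L on the log2 CPM scale. KE4 minus KE8 was -2.50.

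The promoters of *Apoe* and *Lrp8*, the 2 genes that fell in both mutants, are shown with that of *Cd36*, a gene that rose in the null. Each is the 250 bases before the most upstream transcript start that RefSeq lists, read 5′ to 3′ on the gene's strand, from build GRCm38.p6. The *Apoe* window is chr7:19699189-19699438 (minus strand), the *Lrp8* window chr4:107802635-107802884 (plus strand) and the *Cd36* window chr5:17835897-17836146 (minus strand). The *Lrp8* and *Cd36* windows lie inside the span that the files give for the gene, whose own start is farther upstream. Capitals mark the motifs searched on both strands, the TCF/LEF cores CTTTGAT and CTTTGAA and the GC box GGGCGG.
Apoe: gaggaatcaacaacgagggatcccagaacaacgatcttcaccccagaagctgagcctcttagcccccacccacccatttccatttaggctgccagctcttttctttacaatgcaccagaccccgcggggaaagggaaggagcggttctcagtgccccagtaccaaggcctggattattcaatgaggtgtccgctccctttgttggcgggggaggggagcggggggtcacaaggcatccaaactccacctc
Lrp8: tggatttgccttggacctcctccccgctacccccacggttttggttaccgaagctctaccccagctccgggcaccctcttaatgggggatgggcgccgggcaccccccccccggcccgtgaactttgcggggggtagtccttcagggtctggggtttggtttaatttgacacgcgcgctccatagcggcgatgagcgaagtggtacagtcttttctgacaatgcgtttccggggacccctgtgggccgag
Cd36: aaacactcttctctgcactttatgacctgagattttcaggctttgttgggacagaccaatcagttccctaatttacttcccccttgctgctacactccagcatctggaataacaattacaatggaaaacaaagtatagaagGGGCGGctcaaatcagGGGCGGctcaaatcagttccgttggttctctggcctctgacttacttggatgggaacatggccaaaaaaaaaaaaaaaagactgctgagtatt
Neither TCF/LEF core is spelled in these 3 windows or in that of *Vldlr*, while 7.48% of the 32851 promoter windows of the same length hold at least 1 of them. The *Cd36* window holds 2 GC boxes in a short tandem repeat and the other 3 windows hold 0, and 32.7% of all windows hold this motif. GC content was 57.2% in the *Apoe* window, 62.4% in *Lrp8*, 43.2% in *Cd36* and 41.6% in *Vldlr*. RefSeq windows matched 4 of the 9 genes.

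*Gpihbp1*, the capillary anchor of lipoprotein lipase, rose 12.1-fold in *Gpr124-/-*, while *Lpl* itself was low in every library. *Gpihbp1* was at 27.8, 18.2, 22.2 and 22.7 TPM in the WT embryos, at 44.7, 51.9, 42.3 and 47.3 TPM in *Gpr124ΔC/ΔC* and at 179, 314, 278 and 333 TPM in *Gpr124-/-*. The 3 genotypes did not overlap, and the lowest null embryo was KE4. The log2 fold change was 3.57 ± 0.21 (adjusted p = 2.75e-07) in the null and 2.61 ± 0.20 (adjusted p = 3.94e-05) between the null and *Gpr124ΔC/ΔC*. In *Gpr124ΔC/ΔC* against WT it was 0.96 ± 0.19 (adjusted p = 0.0115), past the p threshold and just short of the fold threshold. With each embryo left out in turn that value ran from 0.90 to 1.06, and the gene was called without JE1 (1.06) and without LE2 (1.03), and within letters it was 1.04 in J and 0.87 in L on the log2 CPM scale.

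*Lpl* was at 1.80, 1.55, 2.92 and 2.28 TPM in WT, at 1.80, 1.47, 1.75 and 1.49 TPM in *Gpr124ΔC/ΔC* and at 0.776, 1.06, 1.32 and 0.735 TPM in *Gpr124-/-*. Every null embryo was below every WT embryo, and of the *Gpr124ΔC/ΔC* embryos JE3 and LE2 lay within the WT range and JE4 and LE5 just below it. In the null *Lpl* fell, with a log2 fold change of -1.16 ± 0.23 (adjusted p = 0.00318), and the difference of *Gpr124ΔC/ΔC* from WT was -0.45 (adjusted p = 0.424). The null kept an adjusted p under 0.05 in all 20 alternatives but fell short of the fold threshold without KE8 (-0.99, adjusted p = 0.0103) and by limma on log2(TPM + 1), a scale that shrinks the changes of low genes (-0.66, adjusted p = 0.0114 with the filter and 0.0134 without). *Gpihbp1* exceeded *Lpl* in TPM by a factor of 11.2 ± 3.31 (SD, n = 4) in WT, 29.0 ± 5.42 in *Gpr124ΔC/ΔC* and 298 ± 110 in *Gpr124-/-*.

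Within single libraries *Apoe* and *Gpihbp1* changed places. The ratio of *Apoe* to *Gpihbp1* in TPM was 49.5 ± 9.29 (SD, n = 4) in WT, between 37.3 and 59.2, and 8.80 ± 1.48 in *Gpr124ΔC/ΔC*, between 6.92 and 10.1. In *Gpr124-/-* it was between 0.188 and 1.14, with KE4 the single null embryo above 1. A ratio within a library does not depend on how that library was scaled.

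**Figure D3:**
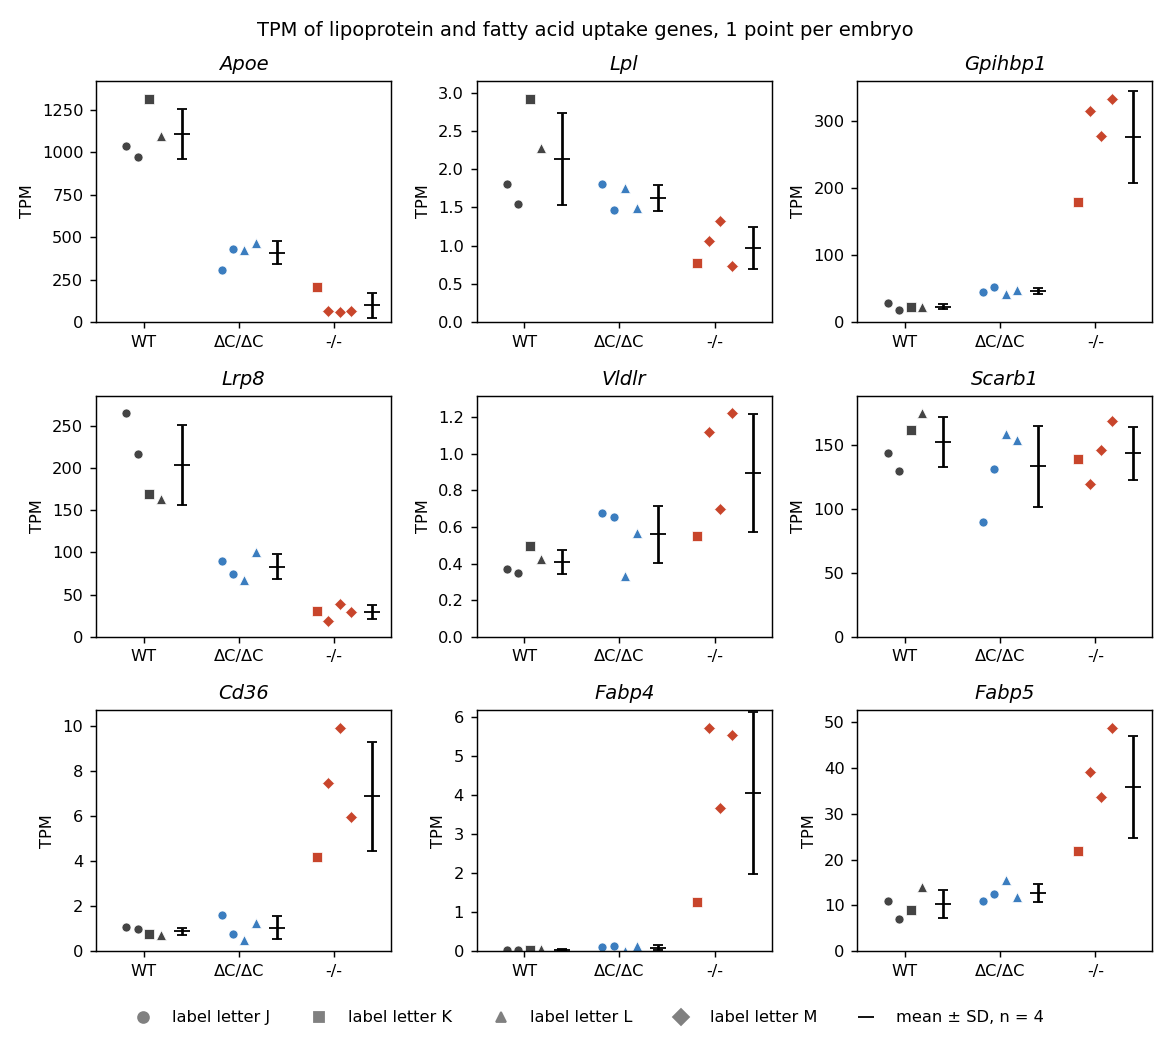
TPM of the 9 genes in each of the 12 embryos on linear axes from 0, with the symbol showing the label letter and the bar beside each group its mean ± SD (n = 4). *Apoe*, *Lrp8* and *Gpihbp1* separate all 3 genotypes, *Cd36*, *Fabp4* and *Fabp5* separate the null from the rest, and *Scarb1* overlaps throughout. The share of all genes tested that separate the genotypes in these ways is not given. KE4, the square in -/-, is the null embryo nearest to the other genotypes in *Apoe*, *Gpihbp1*, *Cd36*, *Fabp4*, *Fabp5* and *Vldlr*.

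The other receptors moved less or not by the test. *Vldlr*, a receptor of APOE-rich lipoproteins and of reelin, was at 0.370, 0.349, 0.494 and 0.423 TPM in WT, at 0.678, 0.657, 0.333 and 0.569 TPM in *Gpr124ΔC/ΔC* and at 0.550, 1.12, 0.6995 and 1.22 TPM in *Gpr124-/-*. The null lay above WT without overlap, but *Gpr124ΔC/ΔC* overlapped with both. Its log2 fold change in the null was 1.10 ± 0.33 (adjusted p = 0.0307), and the call did not survive the letter term (0.11, adjusted p = 0.968), the loss of any one of JE1, JE6, LE6, ME1 or ME5, or limma on log2(TPM + 1) without a filter. *Lrp8* exceeded *Vldlr* in TPM by a factor of 344 to 717 in WT, 114 to 203 in *Gpr124ΔC/ΔC* and 16.4 to 56.2 in *Gpr124-/-*, so *Lrp8* remained the more abundant of the pair in all 12 libraries.

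*Scarb1*, the receptor of high-density lipoprotein, was at 144, 129, 161 and 174 TPM in WT, at 89.4, 131, 158 and 153 TPM in *Gpr124ΔC/ΔC* and at 139, 119, 146 and 169 TPM in *Gpr124-/-*. The 3 ranges overlapped, with JE3 the lowest embryo. The log2 fold change was -0.12 ± 0.13 (adjusted p = 0.582) in the null and -0.29 ± 0.13 (adjusted p = 0.338) in *Gpr124ΔC/ΔC*, and it stayed between -0.26 and -0.07 in the null under all alternatives.

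*Cd36*, *Fabp4* and *Fabp5*, which take up and carry fatty acids, were higher in every *Gpr124-/-* embryo than in any other embryo and did not pass the test in *Gpr124ΔC/ΔC*. *Cd36* was at 1.07, 0.979, 0.755 and 0.720 TPM in WT, at 1.63, 0.772, 0.498 and 1.28 TPM in *Gpr124ΔC/ΔC* and at 4.19, 7.47, 9.92 and 5.98 TPM in *Gpr124-/-*. Its range in *Gpr124ΔC/ΔC* spanned that of WT, and the null lay above both. The log2 fold change was 2.91 ± 0.38 (adjusted p = 0.000145) in the null and 0.21 ± 0.40 (adjusted p = 0.921) in *Gpr124ΔC/ΔC*. Against *Gpr124ΔC/ΔC* the null was higher by 2.70 ± 0.38 (adjusted p = 0.00118), and with the letter as a term by 2.18 (adjusted p = 0.223).

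*Fabp4*, the binding protein of adipocytes and peripheral capillaries, went from almost no reads to a low but clear level. WT embryos held 1, 1, 1 and 2 reads, *Gpr124ΔC/ΔC* embryos 3, 3, 0 and 3 reads, and *Gpr124-/-* embryos 33, 137, 119 and 152 reads. In TPM the null embryos were at 1.27, 5.72, 3.66 and 5.55 and all 8 other embryos were at or below 0.143. The rate of reads was 96.1 times that of WT in the null (exact 95% interval 40.9 to 297, covering counting error only), from 441 against 5 reads. For *Gpr124ΔC/ΔC* the ratio was 2.40 (0.722 to 9.11), an interval that includes 1, so a difference was not detectable at this depth. *Fabp4* passed the filter only through the null, where it was high, so its adjusted p adds nothing to these reads and is not given. With the letter as a term the difference between the mutants was 3.94 on the log2 scale and was not called, in a design where these genotypes share no letter.

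*Fabp5*, the more widely expressed binding protein, was present in every library. It was at 10.9, 6.94, 8.95 and 14.1 TPM in WT, at 11.0, 12.5, 15.54 and 11.8 TPM in *Gpr124ΔC/ΔC* and at 21.9, 39.2, 33.7 and 48.7 TPM in *Gpr124-/-*. The null stood apart and the other genotypes overlapped. The log2 fold change was 1.79 ± 0.25 (adjusted p = 0.000221) in the null, 0.24 (adjusted p = 0.798) in *Gpr124ΔC/ΔC* and 1.55 ± 0.25 (adjusted p = 0.00229) between the mutants. With the letter as a term the null against WT was 1.24 (adjusted p = 0.0517) and the null against *Gpr124ΔC/ΔC* 1.10 (adjusted p = 0.275). Of the 50-base stretches of *Fabp5* transcripts, 5.48% also occur in other genes, chiefly pseudogene copies, against 1.40% or less for each of the other 8 genes.

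Platelets carry CD36 too, and platelet markers rose together with these genes. The 8 platelet markers summed to 291 to 579 TPM in WT, 404 to 566 in *Gpr124ΔC/ΔC* and 590 to 1869 in *Gpr124-/-*, and none of the 8 was under 1 TPM throughout. Among null embryos KE4 had the lowest platelet sum and the lowest *Gpihbp1*, *Cd36*, *Fabp4* and *Fabp5*. The platelet sum of KE4 (590 TPM) was close to that of WT embryo LE6 (579) and *Gpr124ΔC/ΔC* embryo LE5 (566). At these like sums *Gpihbp1* was at 179 TPM in KE4 against 22.7 and 47.3, *Cd36* at 4.19 against 0.720 and 1.28, *Fabp4* at 1.27 against 0.0677 and 0.128, and *Fabp5* at 21.9 against 14.1 and 11.8. *Cd36* per unit of the platelet marker *Itga2b* was between 0.0169 and 0.0424 in WT, between 0.0105 and 0.0537 in *Gpr124ΔC/ΔC* and between 0.0256 and 0.0983 in *Gpr124-/-*, ranges that overlap. Per unit of the sum of the 8 markers it was 0.00124 to 0.00331 in WT and 0.00107 to 0.00394 in *Gpr124ΔC/ΔC*. In *Gpr124-/-* that ratio was 0.00320 to 0.00754, which overlapped with WT only at the edge. Erythroid markers summed to 17615 to 52528 TPM in the null against 6654 to 11202 in WT. The part of platelets and red cells in these rises was not tested.

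**Figure D4:**
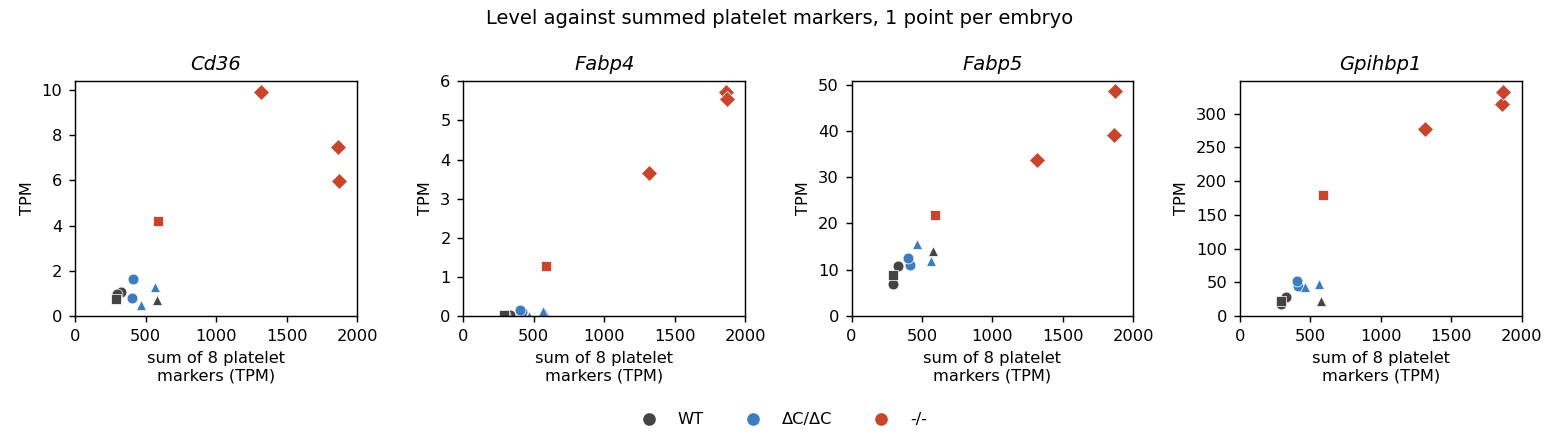
TPM of *Cd36*, *Fabp4*, *Fabp5* and *Gpihbp1* against the summed TPM of 8 platelet markers, 1 point per embryo, colored by genotype and with the symbol showing the label letter (circle J, square K, triangle L, diamond M). KE4, the square in -/-, lies beside the other genotypes on the horizontal axis and above them on the vertical axis in all 4 panels.

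Beyond these 9, 98 further genes of lipid handling and of peripheral capillaries were listed in 4 groups, of which 69 passed the filter. In *Gpr124-/-* against WT 10 of the 69 were higher and 13 lower, beside 5.67% and 4.21% of all genes tested. *Acsbg1* and *Pparg* are among the 10 and would not have passed the filter without the null libraries. In *Gpr124ΔC/ΔC* against WT 2 were higher and 5 lower, beside 0.890% and 1.03% of all genes. Between the mutants 7 were higher in the null, *Pparg* again among them, and 6 lower, beside 2.67% and 1.94% of all genes. The shares over all genes are the same for each of the 4 lists below. The median log2 fold change of the 69 was 0.12, -0.14 and 0.08 in these comparisons, beside -0.01, 0.01 and -0.02 over all genes.

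Among lipoproteins and lipases (24 genes, 13 tested), 4 fell in the null and 1, clusterin (*Clu*, named after its value was seen), rose. *Apod*, a small lipid carrier, fell from 768 ± 93.6 TPM (SD, n = 4) in WT to 283 ± 61.5 in *Gpr124ΔC/ΔC* and 43.5 ± 18.6 in the null, with log2 fold changes of -1.53 (adjusted p = 0.0011) and -4.19 (adjusted p = 2.43e-07). *Angptl4*, an inhibitor of lipoprotein lipase, fell from 219 ± 26.5 TPM to 74.9 ± 29.1 and 17.0 ± 3.06, by -1.65 (adjusted p = 0.00044) and -3.73 (adjusted p = 2.89e-07). Both *Apod* and *Angptl4* separated all 3 genotypes, as *Apoe* did, and the share of all genes that do so is not given. *Pltp*, the phospholipid transfer protein, fell in the null by -2.17 (adjusted p = 9.41e-06) and overlapped with WT in *Gpr124ΔC/ΔC*. *Abca1*, which loads cholesterol onto apolipoproteins, was at 224 ± 15.9 TPM in WT, 138 ± 31.4 in *Gpr124ΔC/ΔC* and 72.0 ± 15.3 in the null. Its log2 fold change was -1.69 in the null (adjusted p = 2.39e-06), and -0.80 in *Gpr124ΔC/ΔC* (adjusted p = 0.00363) did not reach the fold threshold.

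Among lipoprotein and scavenger receptors (22 genes, 16 tested), 1 fell in the null among those reported here. In *Gpr124ΔC/ΔC* edgeR and DESeq2 called 0 of the 16, where edgeR called 0.890% of all genes higher and 1.03% lower. By edgeR 1 of the 16 was lower there at the adjusted p alone, beside 4.09% of all genes in either direction. At an unadjusted p under 0.05 edgeR had 1 of them higher and 2 lower there, and DESeq2 1 and 3. *Dab2*, a clathrin adaptor of lipoprotein receptors, fell in the null by -1.71 (adjusted p = 6.11e-05). *Lrp1* was low in all genotypes, at 1.81 ± 0.320 TPM in WT and 2.28 ± 0.143 in the null (adjusted p = 0.29). *Stab2*, a scavenger receptor at low level, was lower in the null than in *Gpr124ΔC/ΔC* by -1.85 (adjusted p = 0.042) although the embryos overlapped.

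**Figure D5:**
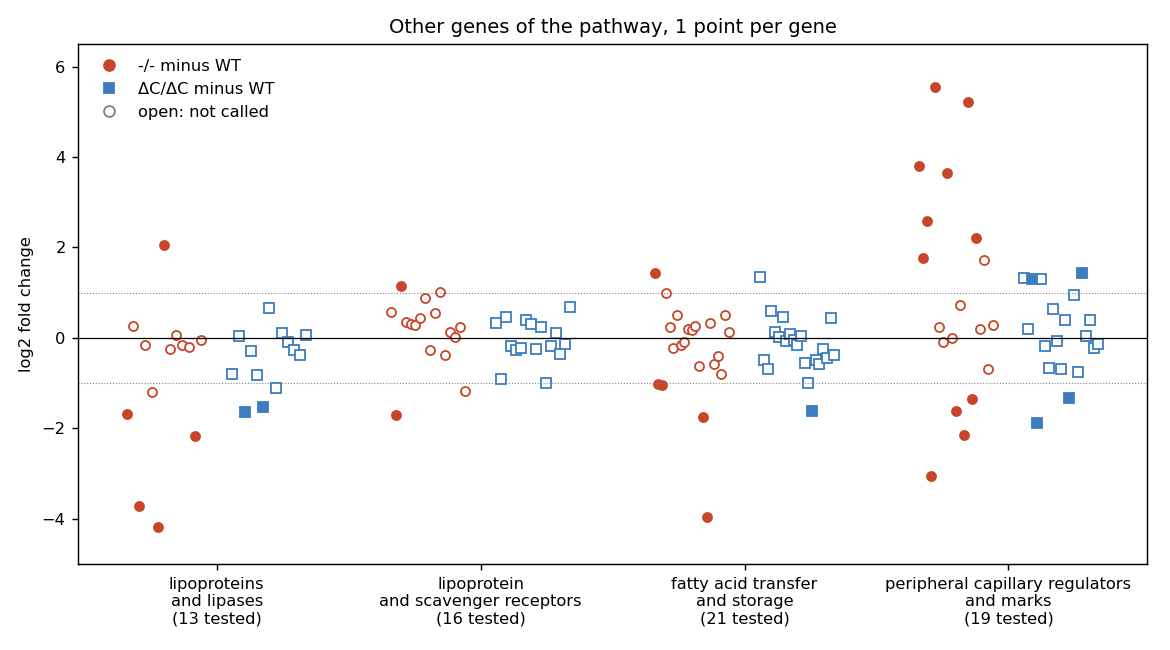
Log2 fold change of the 69 tested genes in 4 lists, 1 point per gene, in -/- minus WT and in ΔC/ΔC minus WT, with filled symbols for genes called. The 7 genes called higher in the list of peripheral capillary regulators and marks reach 5.54, and the lipoprotein list holds falls to -4.19.

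Among genes of fatty acid transfer and storage (31 genes, 21 tested), 4 were lower and 1 higher in the null. *Mfsd2a*, the lysophospholipid carrier of brain capillaries, was at 1317 ± 165 TPM in WT, 460 ± 191 in *Gpr124ΔC/ΔC* and 87.5 ± 36.0 in the null, with log2 fold changes of -1.62 (adjusted p = 0.00443) and -3.96 (adjusted p = 1.86e-06). *Lipe*, the hormone-sensitive lipase, fell from 8.71 ± 1.06 to 2.66 ± 0.255 TPM in the null (-1.75, adjusted p = 6.08e-05). *Acsbg1*, an acyl-CoA synthetase, went from 0.269 ± 0.152 to 0.748 ± 0.260 TPM. It was counted as the 1 higher gene (log2 fold change 1.43), but no WT library reached the minimum of the filter, which it passed with the null libraries. The fatty acid transport proteins did not pass both thresholds. *Slc27a1* was lower in the null by -0.79 (adjusted p = 0.0107), *Slc27a3* differed by 0.51 (adjusted p = 0.0962) and *Slc27a4* by 0.13 (adjusted p = 0.665).

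Among regulators and marks of peripheral capillaries (21 genes, 19 tested), 7 were higher and 4 lower in the null, and 2 rose and 2 fell in *Gpr124ΔC/ΔC*. *Meox2*, a homeobox factor that with TCF15 drives fatty acid uptake genes in heart capillaries, was at 0.544, 0.842, 1.02 and 1.22 TPM in WT, at 1.45, 1.63, 1.61 and 1.21 in *Gpr124ΔC/ΔC* and at 12.2, 9.61, 13.9 and 11.1 in the null. KE4 stood with the other null embryos here, and the log2 fold change was 3.64 ± 0.23 (adjusted p = 4.62e-07). *Tcf15* itself did not pass the test (1.73 ± 1.06, adjusted p = 0.31), and its level varied with the label letter. J embryos were between 37.4 and 67.2 TPM and L embryos between 1.95 and 4.34, WT and *Gpr124ΔC/ΔC* alike. The 3 M embryos, all null, were the highest at 81.5, 98.1 and 112, and the K pair was at 2.61 in KE8 and 26.5 in KE4. With the letter as a term, a fit that rests on KE4 against KE8, its difference in the null was 3.28.

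*Pparg*, the nuclear receptor that controls *Gpihbp1*, *Cd36* and *Fabp4* in fat and capillaries, was at 0.130, 0.207, 0 and 0 TPM in WT, at 0.275, 0.0722, 0.151 and 0.194 in *Gpr124ΔC/ΔC* and at 1.17, 4.70, 4.12 and 4.11 in the null. Its rate of reads in the null was 39.8 times that of WT (exact 95% interval 19.1 to 100, counting error only), from 256 against 7 reads. Like *Fabp4*, it passed the filter only through the null, so no p is given for it. *Ppard*, a relative that also binds fatty acids, went the other way, from 17.1 ± 1.39 TPM in WT to 7.23 ± 0.965 in *Gpr124ΔC/ΔC* (-1.32, adjusted p = 0.000165) and 3.95 ± 0.635 in the null (-2.16, adjusted p = 6.31e-07). *Cd300lg*, a surface protein of capillary endothelium, rose from 0.789 ± 0.596 to 37.6 ± 12.5 TPM in the null (5.54, adjusted p = 1.42e-05). *Aqp1*, a water channel, rose by 3.79 (adjusted p = 0.000197); red cells carry it as well, and erythroid markers moved with it. *Rbp7*, a retinol-binding protein of the FABP family, rose in both mutants, by 1.44 in *Gpr124ΔC/ΔC* (adjusted p = 0.023) and 2.21 in the null (adjusted p = 0.000328). *Car4*, a membrane carbonic anhydrase, fell in both, by -1.88 (adjusted p = 0.00137) and -3.05 (adjusted p = 8.71e-06). *Aqp7*, a glycerol channel, had 6 reads in WT, 11 in *Gpr124ΔC/ΔC* and 22 in the null and was not tested.

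The genes whose log2 CPM ran most like each of the 9 over the 12 libraries were sought among 9989 well-expressed genes. The libraries are shared and 3 genotypes shape every such correlation, so r is given as a description. *Apoe* ran with *Slc38a5* (r = 0.993), *Enpp2* (0.991) and *Selenop* (0.991), all lower in the null. After genotype means were removed r was still between 0.868 and 0.916 for these 3. *Lrp8* ran with *Steap3* (0.972), *St6galnac2* (0.970) and *Synm* (0.969), also lower in the null, and within genotypes r was 0.420 to 0.554. *Gpihbp1* ran with *Slc16a3* (0.990), *Endod1* (0.989) and *Ramp3* (0.988), all higher. *Cd36* and *Fabp4* had *Adarb1* as their nearest gene (0.953 and 0.976), followed by *Gmfg* and *Frmd4a* for *Cd36* and by *Ptpre* and *Gap43* for *Fabp4*. *Fabp5* ran with *Inka1* (0.979), *Pdlim1* (0.973) and *Alox12* (0.973), the last being the lipoxygenase of platelets. *Vldlr* ran with *Fam78a* (0.939), *Mrpl17* (0.910) and *Fcer1g* (0.905), and *Lpl* with *Ptprd* (0.904), *Ccdc90b* (0.904) and *Scarb2* (0.902). *Scarb1* ran with *Ap2m1* (0.961), *Napa* (0.958) and *Mfsd10* (0.957), none of which differed between the null and WT by the test.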

How the data were processed

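Libraries from sorted cells were made with SMART-Seq v4 after PicoPure extraction and sequenced as 150 bp paired-end reads on an Illumina HiSeq by Genewiz, as the methods and labels give it; bcl2fastq 2.17 is listed in the submitters' processing notes, with build mm10. The authors deposited raw read counts per Ensembl gene and TPM values for each library. The TPM values differed from those recomputed from counts and lengths by at most 0.00498% above 1 TPM. The aligner, the counting program and its strand setting are not given in the sources used here. Symbols are those of GENCODE vM21 (49056 of 49315 identifiers matched).

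Counts were tested in R 4.3.3 with edgeR 4.0.16 (glmQLFit and glmQLFTest, TMM factors 0.946 to 1.04) with genotype as the term, after filterByExpr at a count minimum of 10. P-values were adjusted by Benjamini-Hochberg over the 16637 genes tested, and the study's thresholds were used. The alternatives were upper-quartile factors, no filter, the label letter as a term, DESeq2 1.42.0, the 2 compared genotypes alone, limma 3.58.1 on TPM at a pseudocount of 1 or 0.1 in genes averaging 1 TPM or more, limma at 1 without that filter, no fold-change threshold, and each embryo left out in turn. TPM recomputed without *Gm23935*, which takes 12.5% of TPM in JE6 and 14.1% in JE3 and at most 3.04% elsewhere, was added after seeing the data. The fits were tested on simulated data. Levels of different genes were compared in TPM only, and shared 50-base stretches were counted in GENCODE transcripts. Labels do not give litters, so p-values measure the spread between these embryos. The 4 embryos per genotype and, for genes with few reads, counting error limit the precision at 13877572 to 22551163 reads per library.

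The 9 genes and the lists were chosen with earlier results of these data known. Named genes were the 9, 13 further pathway genes listed by name, from each list at most the 3 called genes with the largest fold change per comparison, and for each of the 9 the 3 genes of highest Pearson correlation of log2 CPM (prior count 2) among genes averaging 8 CPM or more. Of the listed genes, 1 is not reported here.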

Additional observations from a re-analysis of the deposited data

Results flagged for a closer look

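In each group of 4 embryos the highest and lowest values of the named genes were compared with the rest, and 6 of 96 groups held an embryo whose gap to its nearest neighbor was above Dixon's 95% critical share of the group's range, where chance flags about 5%. *Apoe* in *Gpr124-/-* was at 205 TPM in KE4 against at most 64.4 in the other 3. *Pparg* in the same embryo was at 1.17 TPM, below 4.11 or more in the others, so KE4 stood toward the other genotypes in both. *Fabp4* in WT was at 0.0677 TPM in LE6, which is 2 reads against 1 in each other embryo. *Slc27a4* in WT was at 18.0 TPM in KE8, below 24.8 or more. *Stab2* in WT was at 2.78 TPM in JE1, and *Aqp1* in WT at 11.1 TPM in JE6. The cause of these values was not tested.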

How the results depend on the processing

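By direction and adjusted p alone, without the fold threshold, 514 of 533 alternative fold changes of the 9 genes stayed as they were, 16 no longer passed, 1 newly passed and 2 reversed. For the 12 pathway genes fixed by name and tested these were 695, 12, 8 and 4 of 719. By both thresholds, 19 of the 533 lost the call and 5 gained it, the 5 being *Gpihbp1* in *Gpr124ΔC/ΔC* under the 3 limma settings and without JE1 or LE2, and of the 719 pathway values 4 lost it and 3 gained it. With the label letter as a term, 2 of the 9 genes and 4 of the 69 were called between the mutants in place of 6 and 13, in a design where those genotypes share no letter. Without a fold-change threshold, 12 of the 69 passed in *Gpr124ΔC/ΔC* against WT in place of 7. With each embryo left out in turn, 1 to 3 of the 9 genes were called in *Gpr124ΔC/ΔC* against WT, the single gene being without JE4 and the 3 without JE1, 7 to 8 in the null against WT and 6 between the mutants. The reversals were of differences that did not pass the test. *Vldlr* between the mutants was -0.41 and *Lrp1* in the null -0.000522 with the letter term. *Cd36* in *Gpr124ΔC/ΔC* ran from -0.19 to 0.46 over the embryos left out and was lowest without JE3. *Slc27a3* between the mutants ran from -0.069 (without LE5) to 0.21. *Tcf15* in *Gpr124ΔC/ΔC* ran from -0.51 (without JE3) to 0.97 and was -0.060 with limma on log2(TPM + 0.1). Without *Gm23935*, all 27 mean TPM values of the 9 genes moved by less than 1 SD. Causes were not tested. Depth limits *Fabp4*, *Pparg* and *Aqp7* in WT and *Gpr124ΔC/ΔC*, where each has few reads.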
